A study of Arabidopsis thaliana with 88 samples.

Results

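The RPP4, SNC1 and RPP5 cluster is a row of related immune receptor genes on chromosome 4 of Arabidopsis thaliana. Its members were taken by gene identifier, with no use of measured values, as the 7 rows AT4G16860 (RPP4), AT4G16890 (SNC1), AT4G16900, AT4G16920, AT4G16940, AT4G16950 (RPP5) and AT4G16960. They are 7 of 62016 Araport11 loci and of 26926 protein-coding genes. DNA methylation was measured by bisulfite sequencing in untreated leaves of 32 natural accessions, which are inbred lines collected in the wild and are named here by their number. Accession 6909 is Col-0, the line of the reference genome. Plants stood on soil at 21 °C under 16 h of light and 8 h of dark and were sampled at the rosette stage before bolting, with leaves of a few plants pooled per library. Each of the 88 libraries came from 1 accession and 1 growth round, and the replicate number is the round.

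Accessions 9845, 9512 and 5486 had 1 library. The 13 accessions 6069, 8244, 9057, 6244, 1254, 9412, 6024, 6076, 6184, 6189, 9905, 6911 and 9470 had 2. Accessions 10012, 8366, 1741, 5779 and 9888 had 3. The 11 accessions 6966, 6220, 5772, 5856, 9588, 5784, 5210, 4807, 6021, 9518 and 6909 had 4. Values are methylation levels of a gene body or of a promoter window of 400 bp around the start of the gene, deposited as fractions and given here in percent. No read counts came with them, so the depth behind a value is unknown.

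RPP4, SNC1 and RPP5 encode intracellular receptors with a nucleotide-binding domain and leucine-rich repeats. RPP4 and RPP5 were found as genes for resistance to downy mildew, and RPP5 was cloned from another line than Col-0. SNC1 was found through a mutation that keeps the receptor active and the plant in a state of defence, and such plants are dwarfed. A line called bal, with raised SNC1 expression, arose among plants that lacked the chromatin remodeller DDM1 and was first studied as an epigenetic variant. It was later found to carry a duplication within the cluster that includes SNC1. In plants, cytosines are methylated in the contexts CG, CHG and CHH (H stands for A, C or T). CG methylation alone is common in the bodies of ordinary genes, while methylation in all these contexts is typical of silenced transposable elements (TEs). No role is given here for the members known only by an identifier.

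All 7 members lie on the minus strand. In TAIR10 coordinates, RPP4 spans chr4:9488466-9495837, SNC1 chr4:9500271-9505972 and RPP5 chr4:9538233-9544755. AT4G16900 spans chr4:9511859-9516688, AT4G16920 chr4:9517950-9525800, AT4G16940 chr4:9531373-9537918 and AT4G16960 chr4:9547402-9555865. The interval from the first to the last member is 67.4 kb long and holds 5 more protein-coding loci (AT4G16880, AT4G16915, AT4G16930, AT4G16955 and AT4G16957), 2 TE genes (AT4G16910 and AT4G16935) and 15 TE fragments. RPP4 overlaps 6 TE fragments and AT4G16920 overlaps 4. AT4G16900 and AT4G16960 overlap 1 each, and SNC1, AT4G16940 and RPP5 overlap none. The deposited row of AT4G16960 is 8464 bp long, while RefSeq's gene of that identifier is 3627 bp, so its gene-body value covers more than the RefSeq gene and its promoter window stands at the end of the longer row.

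**Figure D1:**
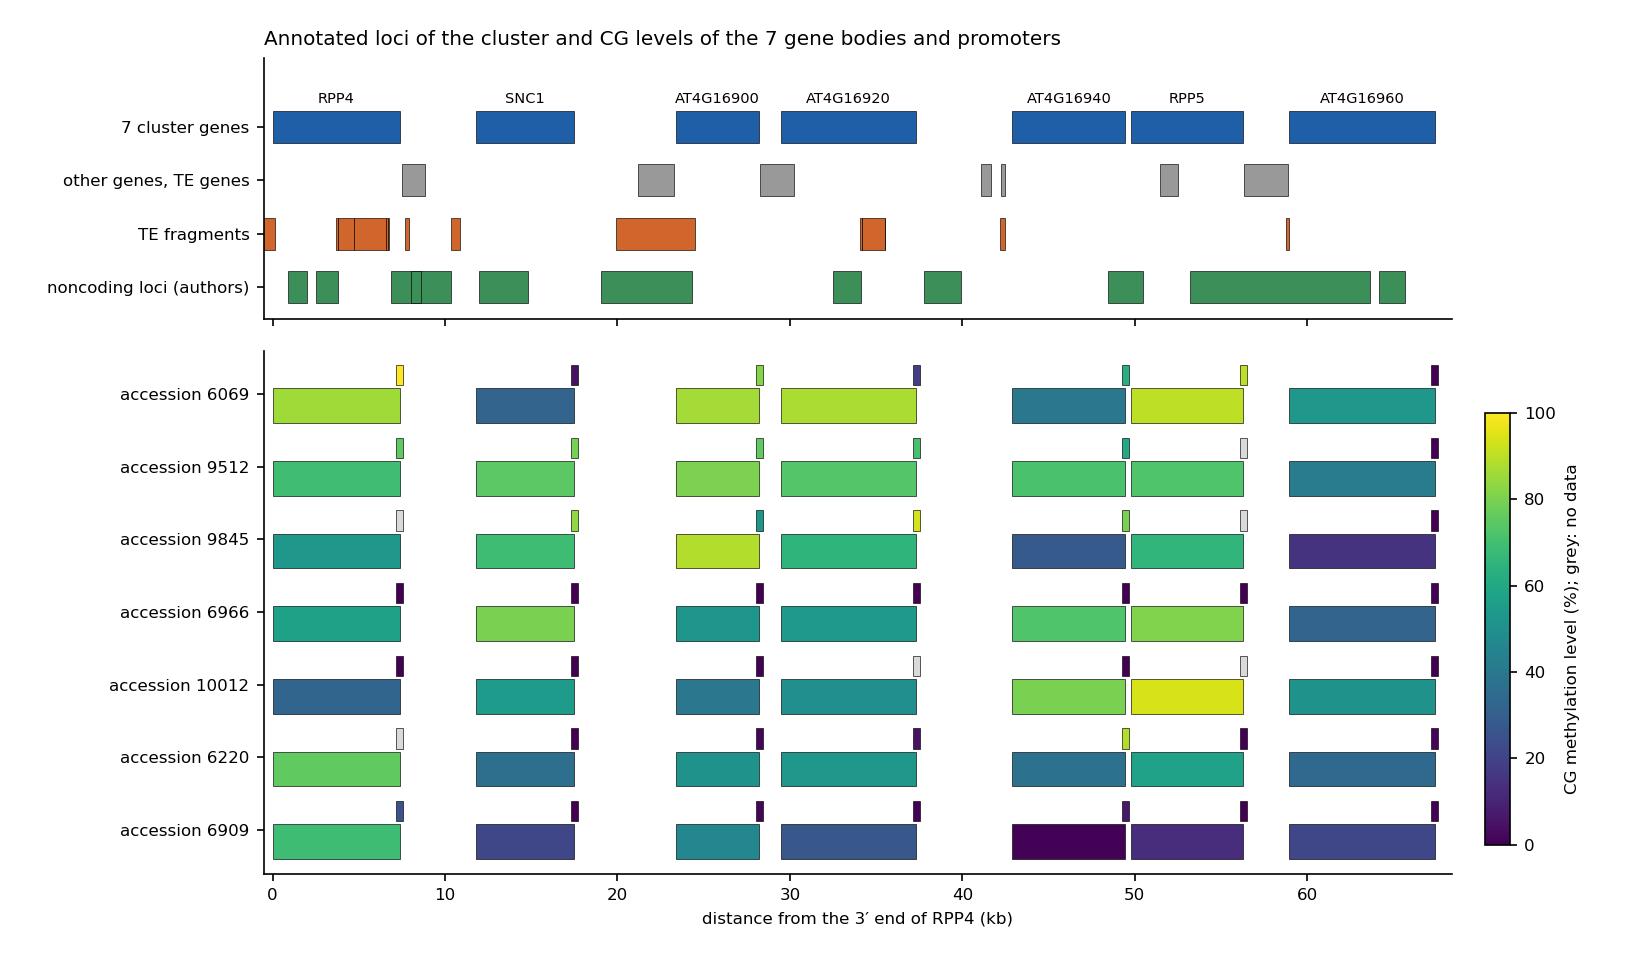
The upper part maps the 7 cluster genes, other genes and TE genes, TE fragments and the authors' noncoding loci by distance from the 3′ end of RPP4 in kb, and 1 TE fragment runs past the left edge. The lower part gives the CG level of each gene body (wide box) and promoter (narrow box) in the 6 accessions with the highest median CG level over the 7 bodies and in 6909, coloured from 0 to 100%. In 6966 the SNC1 body averaged 79.8% and its promoter 0%, whereas the SNC1 promoter had 79.4% in 9512 and 83.3% in 9845.

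The tables mark no value as missing. Regions whose deposited CHH fraction was exactly 1 were taken to have no data, which was inferred from the values. By it, gene bodies lacked data in 42 of 616 member values, or 6.82%, and promoters in 250 of 616, or 40.6%. The 22 libraries without AT4G16940 were the most for a gene body, followed by 10 for AT4G16900, 4 for RPP4, 3 for RPP5, 2 for AT4G16920, 1 for SNC1 and 0 for AT4G16960. The body of AT4G16900 had no data in any of the 4 libraries of 6021, and that of AT4G16940 in neither library of 6244. Promoters were without data in 61 libraries for RPP5, 58 for RPP4, 57 for AT4G16940, 39 for AT4G16920, 21 for AT4G16900, 8 for AT4G16960 and 6 for SNC1. The RPP5 promoter lacked data in all libraries of 20 accessions and the RPP4 promoter in all libraries of 17. No member value was missing in the 4 libraries of 6909. Protein-coding genes lacked data in 2.3% of body values and 5.5% of promoter values on average. A CG value of exactly 100% can be a true level or a value that rests on few reads. There were 10 such body values for AT4G16940, 6 for AT4G16900, 3 for RPP4, 2 each for AT4G16920 and RPP5 and 0 for SNC1 and AT4G16960. A CG value of exactly 0% can likewise be true or rest on few reads, and none was left out for that reason. Results without the values of 100% therefore lean toward lower levels. Whether reads from one of these related genes were placed on another was not tested.

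Each of the 7 gene bodies had a mean level above that of the median protein-coding gene and differed widely from accession to accession. Over accession means, the CG level was 38.4% ± 27.0 for RPP4, 20.2% ± 22.5 for SNC1 and 27.3% ± 30.4 for RPP5 (SD, n = 32 accessions each). It was 49.1% ± 27.4 for AT4G16900 and 31.3% ± 34.7 for AT4G16940 (n = 31 each), and 25.2% ± 25.6 for AT4G16920 and 26.4% ± 10.7 for AT4G16960 (n = 32 each). The SD over accessions of AT4G16940 was above that of 99.1% of protein-coding genes, that of RPP5 above 98.4%, that of AT4G16900 above 97.8%, that of RPP4 above 97.7%, that of AT4G16920 above 97.3% and that of SNC1 above 96.5%. AT4G16960 stood apart with 83.4%. The spread of AT4G16940 rests in part on sparse data, since 22 of 88 libraries had none. Its means of 100% in 1254, 1741 and 9470 and of 0% in 4807, 5210, 5784 and 9518 each came from 1 library. The median protein-coding gene had a mean CG level of 6.17% and an SD of 5.97 percentage points. Without the values of exactly 100%, the mean CG level was 15% ± 24.4 for AT4G16940 and 42.2% ± 22.3 for AT4G16900 (n = 28 each), and 34.3% ± 25.1 for RPP4 (n = 31).

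Each member was then set against the mean of the protein-coding gene bodies of the same accession with a two-sided sign-flip permutation test over accessions, in 21 tests (7 members in 3 contexts) with 100000 resamples, whose smallest p is 1e-05. After Benjamini-Hochberg adjustment over the 21 tests, 14 passed 0.05. In CG, AT4G16900 exceeded the protein-coding mean by 35.1 ± 27.2 percentage points in 29 of 31 accessions (permutation p = 1e-05, adjusted p = 7e-05). RPP4 exceeded it by 24.4 ± 26.2 points in 26 of 32 accessions (adjusted p = 0.000157), and AT4G16960 by 12.4 ± 10.4 points in 30 of 32 (adjusted p = 7e-05). SNC1 was above it in 16 accessions and below in 16, with a mean difference of 6.19 ± 22.9 points that did not pass (permutation p = 0.137, adjusted p = 0.16). RPP5, AT4G16920 and AT4G16940 passed in CG with 16 of 32, 15 of 32 and 16 of 31 accessions above, so a mean above that of genes went with about as many accessions below it. The AT4G16940 difference of 17.4 ± 35.6 points shrank to 1.65 points without the values of exactly 100% (adjusted p = 0.772), and its call was also lost without growth round 4 (10.9 points, adjusted p = 0.135). The AT4G16920 difference of 11.2 ± 25.4 points lost its call without those values (9.37 points, adjusted p = 0.0662) and without rounds 1, 2 or 4 (adjusted p from 0.0539 to 0.0882). The RPP5 difference of 13.2 ± 30.6 points lost it without round 1 (0.0746) and round 2 (0.0737).

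In CHG, RPP4 averaged 10.8% against 1.60% for protein-coding genes, a difference of 9.17 ± 13.5 points with 19 of 32 accessions above (adjusted p = 0.00054). SNC1 averaged 9.73% (20 of 32 above, adjusted p = 0.00049), RPP5 10.7% (20 of 32, adjusted p = 0.000892), AT4G16920 7.62% (14 of 32, adjusted p = 0.00644) and AT4G16900 16.6% (21 of 29, adjusted p = 7e-05). AT4G16940 averaged 8.27% with 9 of 31 accessions above and did not pass (adjusted p = 0.0523). AT4G16960 averaged 1.44% and did not pass either (difference -0.156 ± 2.38 points, adjusted p = 0.754). In CHH, AT4G16900 (3.47% against 0.675% for protein-coding genes, adjusted p = 0.000168), AT4G16920 (1.48%, adjusted p = 0.0107) and RPP5 (1.47%, adjusted p = 0.0453) passed. RPP5 lost its CHH call without rounds 1, 2 or 4 (adjusted p from 0.0709 to 0.0942).

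**Figure D2:**
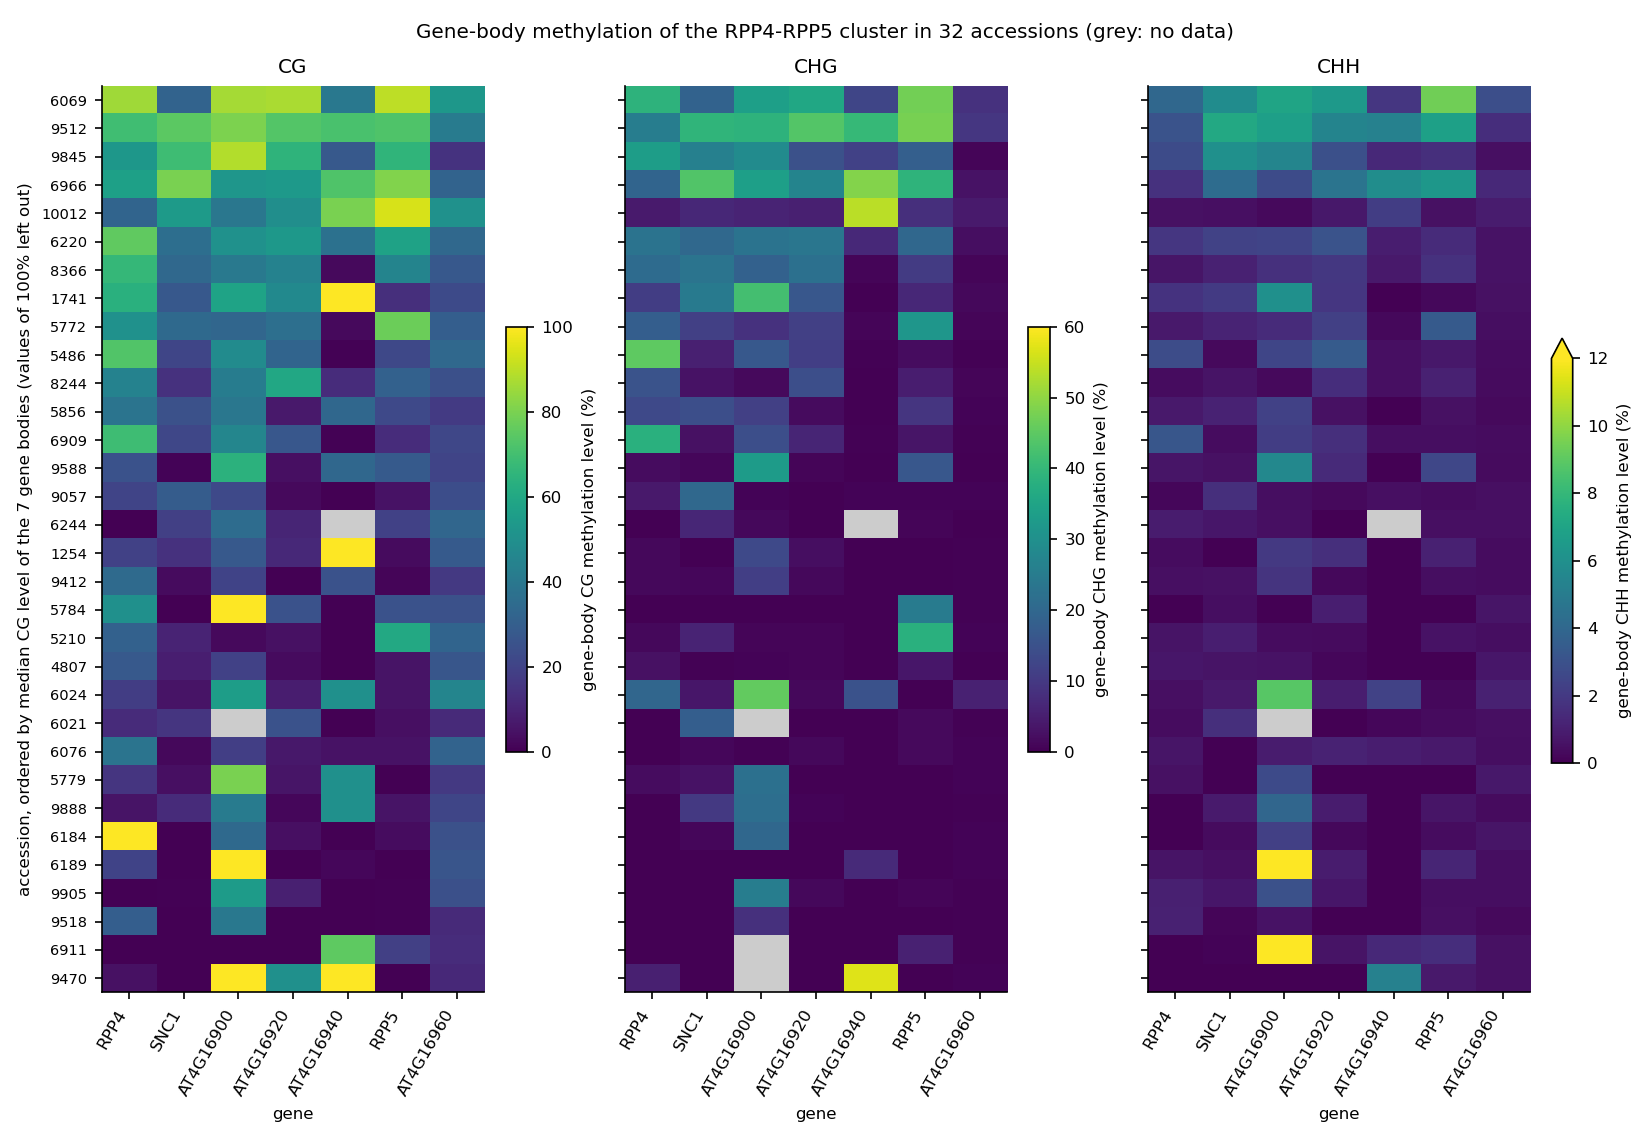
Colour gives the mean methylation level of each gene body (columns) in each accession (rows) in CG, CHG and CHH, on scales that end at 100%, 60% and 12%, with grey for no data. Accessions are ordered by the median CG level of the 7 bodies without values of exactly 100%, and 6069, 9512, 9845 and 6966 at the top are coloured in all 3 contexts for most genes, while 10012 is high in CG and, AT4G16940 apart, at the low end of the scale in CHG.

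The differences between accessions exceeded the spread between replicates in every gene body. In the F-test for accession with limma-moderated variance, Benjamini-Hochberg adjusted over all loci of a table, 60.4% of all loci were called in CG gene bodies at an adjusted p under 0.05, and 7 of 7 members. In CHG bodies 21% of loci and 7 of 7 members were called, and in CHH bodies 14.8% of loci and 7 of 7 members. Protein-coding genes alone were called in 76.4%, 13.6% and 8.84% of cases in CG, CHG and CHH, so that a call in CG was the usual case for a gene. SNC1 had the strongest CG result of the members (adjusted p = 6.69e-24). Accession accounted for 94.6% of its sum of squares and the pooled SD between replicates was 6.32 points. RPP5 followed (adjusted p = 1.1e-17, 91.2%, replicate SD 11.9 points), then AT4G16960 (1.01e-13, 85.9%, 5.06 points). For RPP4 (1.06e-07), AT4G16900 (5.2e-08) and AT4G16920 (1.46e-07) the share lay between 75% and 79.6% and the replicate SD between 15 and 17 points. The median share of protein-coding genes was 71.1%, so a large share was usual. AT4G16940 had the widest replicate SD, 31.1 points, and an adjusted p of 0.0185 in CG and 0.0312 in CHH. Both calls of AT4G16940 were lost without growth round 2 (adjusted p = 0.0871 and 0.463) and without round 3 (0.287 and 0.42), and the CHH call also with the growth round as a replicate block (adjusted p = 0.0661), without round 4 (0.307), without 6909 (0.0582) and without the 30 libraries that lacked a member body (0.0806).

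RPP4 was highly methylated in some accessions and at 0% in others. Its CG level was 82.6% and 88.9% in the libraries of 6069, 71.4%, 78.4%, 75.9% and 77.0% in those of 6220, and 72.8% in the 1 library of 5486. It was 71.1%, 64.7%, 72.7% and 67.6% in 6909. By contrast it was 0% in both libraries of 6244 and of 9905, and in the 1 library of 6911 with data. The median accession stood at 33.3%, 12 accessions reached 50% and 5 were at or below 10%. The value of 100% in 6184 came from 1 library whose CHG level was 0%. Among the 27 accessions with at least 2 RPP4 values, ordered by mean, libraries of neighbouring accessions overlapped in all but 1 of 26 pairs, the exception being 6069 above 6220. The high CG levels came with CHG methylation in several accessions. RPP4 CHG levels were 35.0% and 42.4% in 6069, 45% in 5486, 33.3% in 9845 and 42.4%, 39.3%, 33.6% and 36.7% in 6909. They were 0% in 10 accessions. Accession 10012 was close to the median accession in CG, with 29.4%, 40% and 27.0%, and its CHG levels were 0%, 7.69% and 5.26%. Low CHG at such a CG level was not particular to 10012. Mean levels were 38.6% CG and 0% CHG in 6076 and 29.9% and 0% in 9518. In 5856 they were 38.7% CG and 13.2% CHG.

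SNC1 was low in most accessions and high in few. Its CG level was 81.8%, 77.8%, 83.3% and 76.5% in 6966, 74.7% in the library of 9512, 69.1% in that of 9845 and 54.0%, 58.9% and 50% in 10012. No other accession averaged 50%. The median was 14.3%, and 14 accessions were at or below 10%, of which 6 were at 0%. Accession 6909 was in the middle with 15.5%, 19.1%, 29.4% and 21.5%. Among the 28 accessions with at least 2 values, libraries of neighbours in the order overlapped except in 2 of 27 pairs, 6966 above 10012 and 10012 above 6220. In CHG, SNC1 reached 35.1%, 53.1%, 59.6% and 27.3% in 6966, 39.4% in 9512 and 26.1% in 9845, against 11.6%, 5.15% and 3.54% in 10012. In 6021 the CG levels were 10.3%, 16.2%, 20.7% and 14.5% and the CHG levels 7.91%, 22.1%, 25.6% and 16.5%. In 9057 they were 40.7% and 17.8% in CG and 20.5% and 20% in CHG. In 1741 they were 24.6%, 25.5% and 32.9% in CG and 20.9%, 22.4% and 29.9% in CHG.

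RPP5 showed the most contrasted pattern of the named receptors. CG levels were 81.8%, 100% and 100% in 10012, 87.5% and 92.2% in 6069, 85.0%, 93.1%, 70.0% and 75.9% in 6966, and 76.9%, 88%, 72.7% and 72.1% in 5772. They were 72.3% in 9512, 65.4% in 9845 and 58.2%, 58.4%, 57.2% and 56.1% in 6220. In 6909 they were 17.8%, 11.5%, 8.33% and 12.4%. Of the 32 accessions, 8 averaged at least 50% and 14 at most 10%, among them 5779, 6189 and 9470 with 0% in every library with data. In CHG, RPP5 reached 47.7% and 46.8% in 6069, 47.8% in 9512, 42.4%, 40%, 32.1% and 41.5% in 6966 and 23.5%, 33.3%, 40.9% and 28.6% in 5772. In 10012 the CHG levels were 11.8%, 0% and 12.5%. RPP5 values of 5210 (85.7%, 45.5% and 50% in CG, with no data in round 3) and of 9588 (12.5%, 60%, 0% and 40%) were spread widely between libraries.

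**Figure D3:**
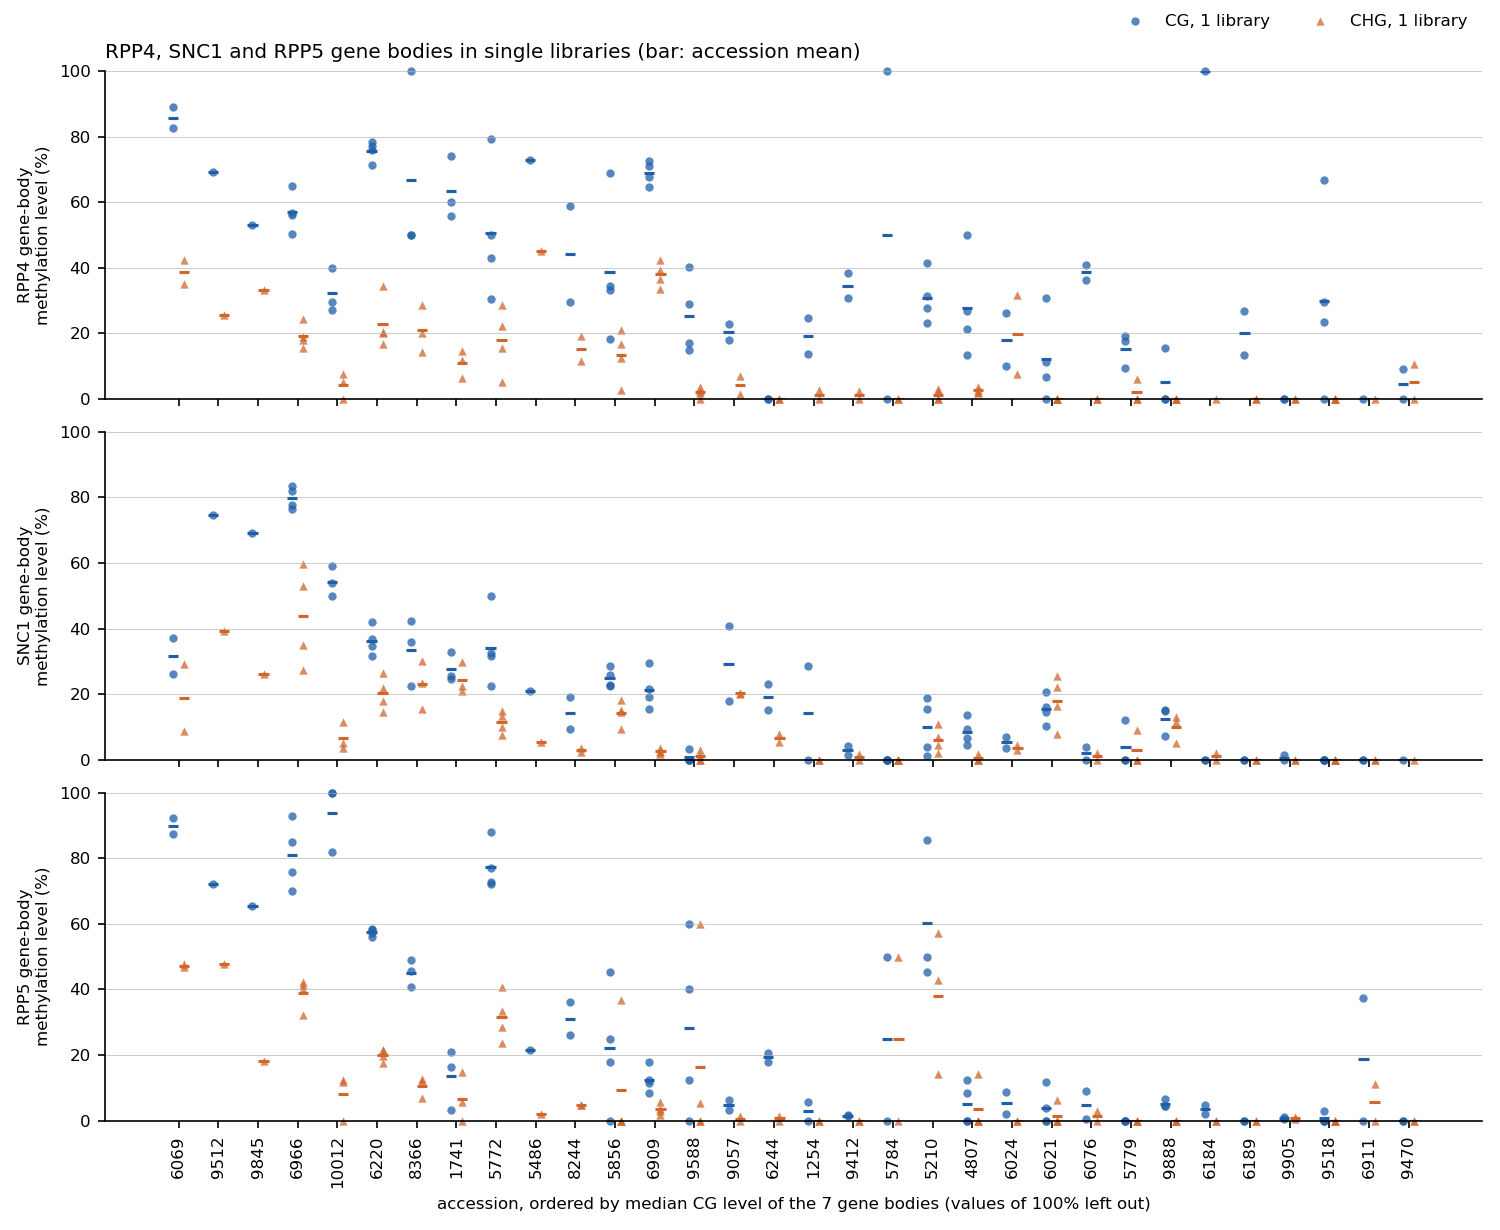
Each point is the gene-body methylation level (%) of RPP4, SNC1 or RPP5 in 1 library, in CG (circles) and CHG (triangles), by accession in the order of the median CG level of the 7 bodies without values of exactly 100%, and short bars are accession means. The 4 libraries of 6966 lie between 76.5% and 83.3% CG for SNC1, while RPP4 in 9518 ranges from 0% to 66.7% between libraries.

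AT4G16900 was the member with the highest mean level, and its CG level was at least 50% in 13 of 31 accessions. It had 85.5% and 87.4% in 6069, 88.4% in 9845, 80.4% in 9512 and 61.0%, 50.5%, 75% and 70.5% in 9588. Levels were low in 5210, with 0%, 7.07%, 1.61% and 1.14%. The 2 accessions with the highest CHG level of AT4G16900 were 6024 (45.5% and 45.8%) and 1741 (44.2%, 47.8% and 34.2%). The SNC1 CHG levels were 3.02% and 4.38% in 6024 and 20.9%, 22.4% and 29.9% in 1741. AT4G16900 CHH levels reached 10.4% and 7.41% in 6024, and a value of 20% in 6189 came from 1 library with a CG level of exactly 100% and a CHG level of 0%.

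AT4G16920 had 85.8% and 88.8% CG in 6069, 73.2% in 9512, 65% in 9845 and 54.1%, 49.8%, 52.4% and 56.8% in 6220. Its median over accessions was 11%, with 15 accessions at or below 10%. In CHG its accession share of 97.1% was the highest of the members (adjusted p = 5.66e-29), with 37.3% and 34.3% in 6069, 43.9% in 9512 and 24.1%, 20.6%, 25.1% and 24% in 6220, and 10 accessions at 0%.

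AT4G16940 was close to 0% in CG in 6909 (0.546%, 1.06%, 0.758% and 0.483%) and in 5772 (3.85%, 2.11%, 0.926% and 2.82%). In 6966 it had 66.7%, 80.8%, 95.8% and 46.7% CG with 42.1%, 57.9%, 45.5% and 50% CHG, and in 9512 it had 71.3% CG and 40.2% CHG. In 10012, the CHG levels of 80%, 31.2% and 50% at AT4G16940 were an exception to the low CHG of the other members there. AT4G16960 varied least. Its CG level ran from 11.7% in 9470 to 53.1% in 6069 (52.9% and 53.2%), no accession was at 0%, and CHG was highest in 9512 (9.5%) and 6069 (9.52% and 7.6%). It had data in all 88 libraries.

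Some accessions were high across the cluster. In 9512, CG levels of the bodies ran from 71.3% to 80.4% in 5 of the members, with 69.3% for RPP4 and 41.7% for AT4G16960, and CHG levels of all but AT4G16960 from 25.5% to 47.8%. In 6069 the median over the 7 bodies was 85.7% in CG, 33.8% for CHG and 5.82% for CHH, and the lowest CG level was that of SNC1, 37.3% and 26.3%. In 6966 the medians were 56.9%, 33.8% and 4.24%, and in 9845 they were 65%, 18.3% and 2.76%. In 6220 they were 50.4%, 20.2% and 1.91%. In 10012 they were 50.6% for CG but 6.09% for CHG and 0.538% for CHH. Genes at large were also low in 10012, which ranked 31 of 32 from the top for the mean CHG level of protein-coding genes. It ranked 31 for that of TE genes as well, and 31 and 32 for CHH. The order of accessions for the cluster matched that for genes at large only in part. From the top, 9512 ranked 31 of 32 for the mean CG level of protein-coding genes and 32 of 32 for that of TE genes. By the same measures, 9845 ranked 26 and 10, 6069 ranked 2 and 7, and 6966 ranked 22 and 9. Accession 6220 ranked 4 and 13, and 10012 ranked 30 and 26. The libraries of 9512 and 9845 had no replicate.

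At the other end, the CG median over member bodies was 0% for 6911, 0.714% for 9518 and 0.744% for 9905. For 9470 it was 11.7%, and 0% without the values of exactly 100%. For the mean CG level of protein-coding genes and of TE genes, 6911 ranked 32 and 12 from the top. Accession 9518 ranked 29 and 31, 9905 ranked 19 and 28, and 9470 ranked 14 and 30. In 9518, 3 gene-body and 25 promoter values of 28 each were without data, and in 6911 these were 2 and 7 of 14, in 9470 2 and 10 of 14. Accession 5784, whose median was 25% and 12.5% without the values of exactly 100%, lacked 12 gene-body and 20 promoter values of 28. The part of missing data in the levels of these accessions was not tested.

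**Figure D4:**
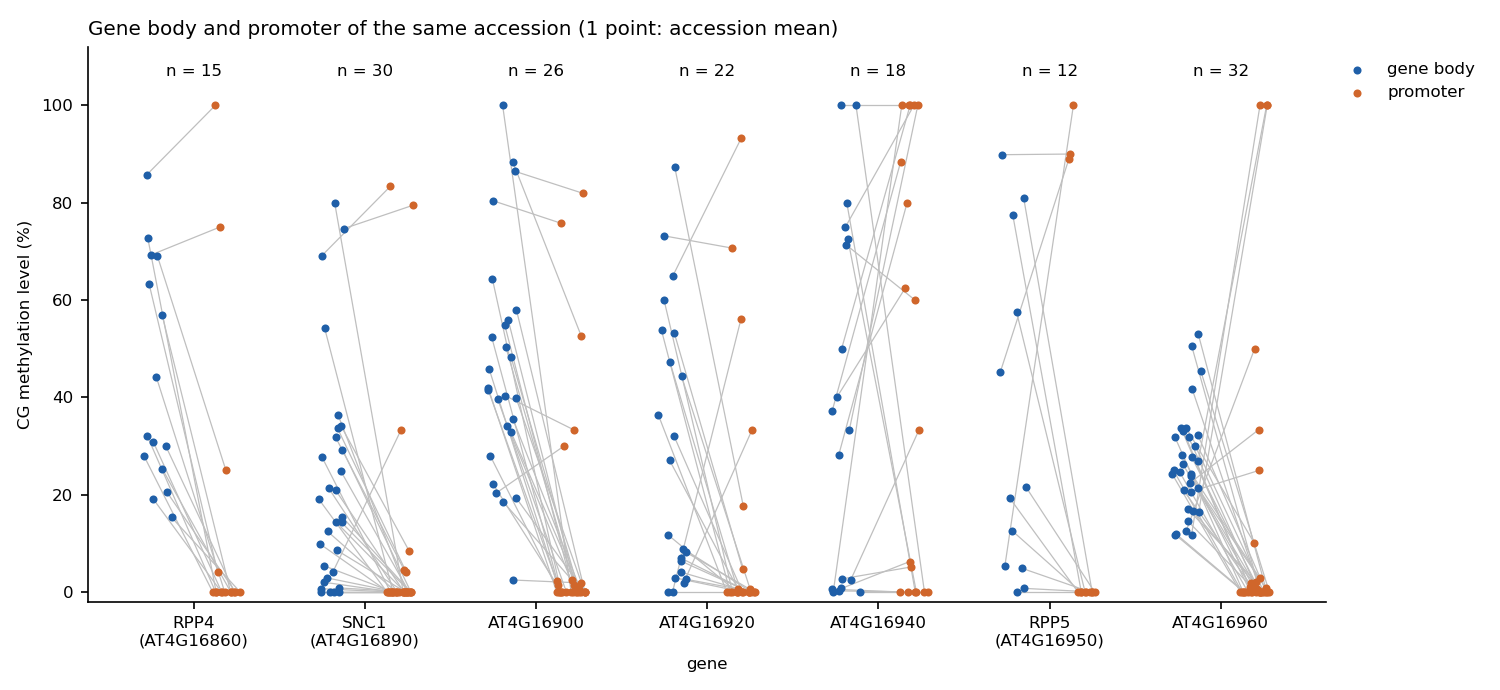
For each gene, accession means of the CG level (%) are plotted for the gene body (left) and the promoter (right) and joined by a line where both had data, with the number of accessions above. Most lines of RPP4, SNC1 and AT4G16900 fall to a promoter at or near 0%, whereas the SNC1 promoters of 9845 and 9512 stand at 83.3% and 79.4%.

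The median accession had a promoter at 0% CG for all members but AT4G16940 (46.7%). Without values of exactly 100%, the AT4G16940 median was 0% too (n = 13). SNC1 bodies averaged 79.8% in 6966 and 54.3% in 10012, while the SNC1 promoter was at 0% in every library of both and in 24 of 30 accessions with data. Gene body minus promoter was tested within accessions by the same sign-flip test, and 11 of 21 tests passed after adjustment. In CG, the body exceeded the promoter by 30.6 ± 23.1 points for RPP4 (13 of 15 accessions, adjusted p = 0.00098) and by 14.5 ± 20.5 points for SNC1 (23 of 30, adjusted p = 0.00098). For AT4G16900 it did so by 35.3 ± 23.6 points (25 of 26, adjusted p = 7e-05) and for AT4G16920 by 16.2 ± 31.2 points (18 of 22, adjusted p = 0.0473). The AT4G16920 call was lost without 6909 (adjusted p = 0.0696) and without growth rounds 1, 2 or 4 (0.0533 to 0.069). RPP5 (8 of 12 accessions, adjusted p = 0.563), AT4G16960 (26 of 32, adjusted p = 0.078) and AT4G16940 (6 of 18, adjusted p = 0.611) did not pass, and the AT4G16940 body averaged 38.6% against 46.4% in its promoter. Without CG values of exactly 100%, AT4G16960 passed with a difference of 26.6 points (29 accessions, adjusted p = 7e-05) and RPP5 with 23.9 points (11 accessions, adjusted p = 0.0485). Leaving those values out took 8 promoter and 0 body values of AT4G16960, and 5 promoter and 2 body values of RPP5. Since only top values are removed, this can raise the difference by itself. The passes of AT4G16960 and RPP5 cannot be told apart from that effect. Under the same filter AT4G16940 had a difference of 2.28 points (12 accessions) and did not pass (adjusted p = 0.891). In CHG, RPP4 bodies averaged 14.0% and RPP4 promoters 0% in all 15 accessions (adjusted p = 0.00063). The other CHG calls were those of SNC1 (6.06 points, adjusted p = 0.0367, lost without round 3 at 0.0644), AT4G16900 (16.2 points, adjusted p = 7e-05) and AT4G16920 (7.9 points, adjusted p = 0.0129). In CHH, AT4G16900 (1.96 points), RPP5 (1.64 points) and AT4G16960 (0.39 points) passed, with adjusted p of 7e-05, 0.00268 and 0.00219, and RPP5 did not without round 3 (0.0744).

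The CG level of the promoter averaged 50% or more in 9 of 18 accessions for AT4G16940, 4 of 32 for AT4G16960, 3 of 12 for RPP5, 3 of 22 for AT4G16920, 3 of 26 for AT4G16900, 2 of 15 for RPP4 and 2 of 30 for SNC1. Values of exactly 100% numbered 8 for the AT4G16960 promoter, 7 for AT4G16940, 5 for RPP5, 2 for RPP4 and 1 for each of the others. Without them, the AT4G16960 promoter averaged 0.692% ± 1.93 (n = 29) in place of 13.4% ± 30.4 (n = 32), and the AT4G16940 promoter 22.9% ± 34.5 (n = 13) in place of 46.4% ± 44.8 (n = 18). The accessions at 50% or more were then 4 of 13 for AT4G16940, 0 of 29 for AT4G16960, 2 of 11 for RPP5 and 1 of 14 for RPP4. In 9512 the CG level was 79.4% at the SNC1 promoter, 75.8% at AT4G16900, 70.7% at AT4G16920, 75% at RPP4 and 60% at AT4G16940. In 9845 it was 83.3% at SNC1, 52.6% at AT4G16900, 93.3% at AT4G16920 and 80% at AT4G16940, and the CHG level of the SNC1 promoter was 66.7%. In 6069 it was 90.5% and 73.3% at AT4G16900, 80% and 100% at RPP5 and 75% and 50% at AT4G16940. The SNC1 promoter of 6069 had 9.09% and 0% in CG beside 19.0% and 19.6% in CHG and 19.7% and 10.6% in CHH, so non-CG levels were the higher ones there. In 6220 the AT4G16940 body had 42.8%, 38.8%, 30.7% and 36.1% in CG, below its promoter with 80%, 87.5%, 85.7% and 100%, while the SNC1 promoter of 6220 was at 0% in 4 libraries. In 6911, whose AT4G16920 body was at 0%, that gene's promoter had 53.8% and 58.3%. The RPP5 promoter had 100% in both libraries of 6024 and 100%, 66.7% and 100% in 8366, and 0% in the 4 libraries of 5772, whose RPP5 body was methylated.

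In the F-test for accession, 27.8% of all promoters were called in CG, 16.1% in CHG and 11.3% in CHH. RPP4, AT4G16940 and RPP5 had promoter data in fewer than 44 libraries and were not tested. Of the other 4 members, 4 were called in CG and 3 in each of CHG and CHH, where AT4G16960 was not (adjusted p = 0.821 and 0.727). SNC1's CG promoter call (adjusted p = 0.000109) was lost without the accessions that had 1 library (adjusted p = 0.863), since its high values were those of 9512 and 9845, and without growth round 4 (0.0867). AT4G16900 (adjusted p = 6.31e-05) lost its CG call without growth round 4 (0.091). AT4G16920 (adjusted p = 0.00269) lost it without rounds 1, 2 or 4 (0.0586 to 0.191) and without the accessions that had 1 library (0.152), and AT4G16960 (adjusted p = 2.41e-05) without round 3 (0.203). The AT4G16900 CHG promoter call (adjusted p = 0.000218) was lost without round 2 (0.0587).

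Against 6909, the other accessions went both ways, given here as counts, and the difference was not tested. For RPP4, 5 of the 31 other accessions were above and 26 below the 69.0% of 6909 in CG, and 2 were above and 29 below its 38.0% in CHG. RPP4 was thus among the more methylated in the reference line. For RPP5, 17 were above and 14 below 12.5%, and for SNC1, 11 above and 20 below 21.4%. For AT4G16940, 21 of 30 were above 0.711%. The promoters of 6909 averaged at most 6.25% CG except that of RPP4, where 3 libraries had 0% and the other had 100%.

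Loci between and within the members gave further detail. The TE fragment AT4TE42880, of 1853 bp within RPP4, had a median CG level of 36.9% over 24 accessions, with 85% in 6069 and 35.8% in 6909. AT4TE42875, of 960 bp within RPP4, had a median of 79.9% over 22 accessions. The TE gene AT4G16910, of 2084 bp between SNC1 and AT4G16900, was at 50% or more in all 30 accessions with data (median 85.8%), so its level varied less than that of its neighbours (SD 8.2 points). AT4TE42950, of 4604 bp, which overlaps the 3′ end of AT4G16900, was likewise at 50% or more in all 32 accessions (median 85.6%). AT4G16957, of 2551 bp between RPP5 and AT4G16960, had a median of 5.44% and reached 87.9% in 10012, 83.3% in 6069, 77.6% in 6966 and 74.1% in 9512, but 0% in 9845. AT4G16915, which overlaps AT4G16920, had 78.2% in 6069, 77.8% in 6966 and 74.8% in 9512 against a median of 2.13%, and was at 4.17% in 9845. Levels of overlapping loci share cytosines.

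Of the 11 noncoding loci that the authors annotated in the interval, 9 overlap a member on the opposite strand. CUFF_NC.8231, of 2832 bp, lies within SNC1. It had a median CG level of 43.6% over 32 accessions, with 86.2% in 10012, 87.6% in 5772, 86.1% in 6220, 79.9% in 9512, 78.8% in 6966 and 22.6% in 6909, and was at 50% or more in 16 accessions, compared with 4 for the whole SNC1 body. CUFF_NC.8228, of 1298 bp within RPP4, was at 50% or more in 18 of 31 accessions, with 86.5% in 6909. CUFF_NC.8050, of 10441 bp over RPP5 and AT4G16960, had a median of 10.1% and reached 85.3% in 6069, 77.7% in 10012 and 73.8% in 9512. Bisulfite levels of a locus and of its antisense partner come from the same region and cannot be told apart.

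Levels of the members moved together over accessions to a varying degree, given here as a description, since the points share libraries and neighbouring sequence. In CG, Pearson's r over accession means ranged from -0.16 to 0.77 over the 21 pairs, with a median of 0.36. It was 0.77 between SNC1 and RPP5, 0.72 between AT4G16920 and RPP5 and 0.71 between SNC1 and AT4G16920 (n = 32 each), and -0.16 between RPP4 and AT4G16940 (n = 31). AT4G16900 and RPP5 had an r of 0.11 (n = 31). In CHG the median was 0.51 and in CHH 0.53. By Spearman's rank correlation the medians were 0.38 in CG, 0.55 in CHG and 0.31 in CHH, so CHH was the lowest by rank. Within a gene, CG and CHG levels had a Pearson's r of 0.88 for SNC1, 0.85 for AT4G16920, 0.83 for RPP5, 0.65 for RPP4 and 0.41 for AT4G16900 (n = 32, and 29 for AT4G16900).

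Among 14664 protein-coding genes outside the interval with an SD of at least 5 points and at least 24 shared accessions, those most like RPP4 in CG were CYSD1 (r = 0.74), AT1G54450 (0.72) and AT5G41840 (0.65, n = 31, and 32 for the others). Those most like SNC1 were AT3G60150 (0.67), AT4G16857 (0.65, n = 31) and ABCC9 (0.62). Those most like RPP5 were AT4G16857 (0.74, n = 31), AT4G26060 (0.61) and AT5G28340 (0.61, n = 27). These are the highest of 14664 values for each member, and whether unrelated genes would reach such an r was not tested. AT4G26060 was at 0% in 9512 and 6966, and CYSD1 had 0.806% in 9512 and 16.9% in 6909. AT4G16857 lies at chr4:9482429-9483913, beside the RPP4 end of the interval, and had 83.9% CG in 9512, 77.8% in 6966 and 11.1% in 9845 against 0.316% in 6909.

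A pair of lists chosen from textbook knowledge set the cluster beside other immunity genes. Of 32 other immune receptor genes, 29 were called in CG gene bodies, 8 in CHG and 9 in CHH. Of 10 genes for receptor signalling or for the control of SNC1, 9, 1 and 0 were called. In CHH, 0 of the 10 had an unadjusted p under 0.05 either by the same limma-moderated F-test. For comparison, 76.4%, 13.6% and 8.84% of protein-coding genes were called in CG, CHG and CHH, and 60.4%, 21% and 14.8% of all loci. The CG counts of both lists were thus also the usual case for a gene. Over the 7 members, the mean levels had medians of 27.3%, 9.73% and 1.37% for CG, CHG and CHH. These medians were 11.2%, 0.432% and 0.428% for the immune receptors, 14.7%, 0.47% and 0.424% for the signalling list, and 6.17%, 0.436% and 0.431% for protein-coding genes. The median SD over accessions in CG was 27.0 points for the members, 8.95 for the immune receptors, 7.73 for the signalling list and 5.97 for protein-coding genes. Leaving out AT4G16960, the lowest CG spread of a member was 22.5 points, and 5 of the 32 receptors and 0 of the 10 signalling genes had one at least as wide. In CHG the lowest was 11.6 points, and 2 of the 32 receptors reached it. LAZ5 had the narrowest CG spread of the receptor list (0.744% ± 1.04). TPR1, a corepressor that acts with SNC1, had the widest of the signalling list (50.9% ± 8.56) and SAG101, a partner of EDS1, the narrowest (1.48% ± 2.05). In CHG the receptors called were RPP1, RPP7, ADR1, ADR1-L1, CHS3, RLM3, TAO1 and RAC1, with means from 0.83% (RAC1) to 11% (RPP7, highest in 9905 with 56.0%), and MOS1, which promotes SNC1 expression, had 0.561%.

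**Figure D5:**
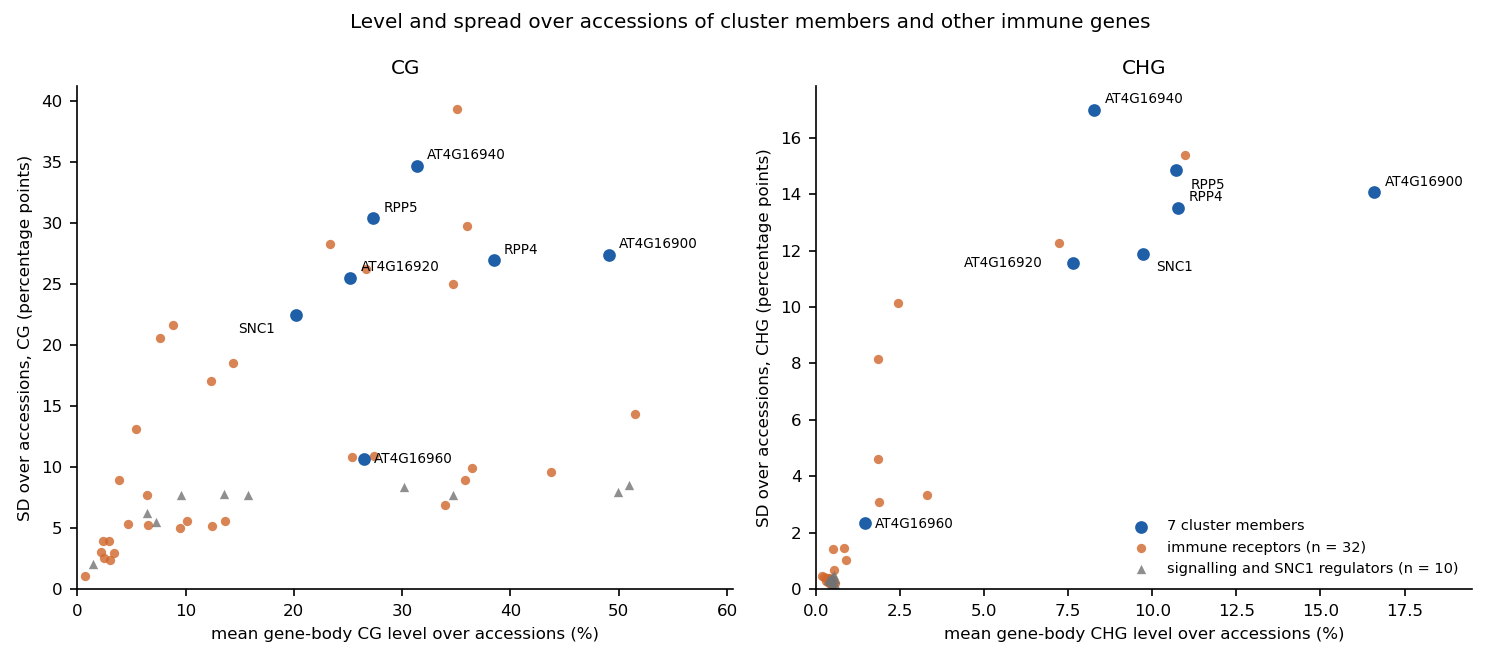
Each point is a gene, placed by its mean gene-body level over accessions (%) and by the SD over accessions (percentage points), in CG (left) and CHG (right), for the 7 members, 32 other immune receptors and 10 signalling genes. The members except AT4G16960 (SD 10.7 points) lie between 22.5 and 34.7 points in CG, and in CHG between 11.6 and 17.0 points, with 2.33 points for AT4G16960.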

How the data were processed

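Bisulfite-treated leaf DNA from the 32 accessions was read as pairs of 100 bp, per the labels' protocols. The authors deposited methylation levels per locus and library as fractions from 0 to 1 in tables for CG, CHG and CHH, for gene bodies and promoters, and for Araport11 and their own annotation (12 tables used). The build is TAIR10, per the submitters' processing notes. Aligner and methylation caller: not given in the sources used here. How a level was averaged over cytosines is likewise not stated. Columns were matched to samples by accession and replicate in their names, and 0 sample columns were left out. The p-values of the F-tests measure the spread between libraries of an accession, which differ in growth round. Those of the sign-flip tests measure the spread between accession means.

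Where the CHH fraction was exactly 1, the region was left out in all contexts, and where the CHG fraction was exactly 1 it was left out of CHG. Loci still at 1 in CG throughout were removed. Fractions were tested per locus with a one-way F-test for accession, with variance moderated by limma 3.58.1 in R 4.3.3 and Benjamini-Hochberg adjustment over all loci, where at least 44 libraries and 3 accessions with 2 or more libraries had a value. Tested on simulated data with 200 changed loci (accession SD equal to the replicate SD), it recovered 62% of them in CG gene bodies (51258 loci), 68.5% in CHG (47164) and 62% in CHH (54050). Promoter windows reach 200 bp to each side of a gene's start. Sign-flip tests used accession means. Tables, sign-flip tests and plots were made in Python 3.11.15 (matplotlib 3.10.9, pandas 2.3.3, NumPy 2.4.6, SciPy 1.17.1). Gene names came from a RefSeq table, used for names and lengths.

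The members and lists were chosen with earlier results of these data known. All members are named, with the loci of their interval, the 3 genes most like RPP4, SNC1 and RPP5, and the list genes with the widest or narrowest CG spread, of which 1 is not reported here. Immune genes called in CHG and single interval loci were named after their values were seen. The replicate number is a growth round in the design text. Deviations from accession means correlated across 24147 genes with a mean r of 0.0015 between libraries of the same round and -0.0005 between rounds.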

Additional observations from a re-analysis of the deposited data

Results flagged for a closer look

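In 65 accession and gene combinations with 4 libraries and CG gene-body data, 5 libraries had a gap to the others that was large for the range of their accession. Chance flags about 1 in 20 such groups, but where all other libraries are at 0%, as in 3 of the 5, any value above 0% is flagged. The AT4G16920 body had 52.9% in replicate 1 of 5772, against 28.9% to 32.7% in its other libraries. It had 100% in replicate 3 of 6021, whose other libraries were at 0%. The SNC1 body had 3.33% in replicate 4 of 9588 and the RPP5 body 2.86% in replicate 3 of 9518, each beside 0% in the other libraries. The AT4G16960 body had 12.7% in replicate 3 of 9588, against 22.7% to 23.9% in its other libraries.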

How the results depend on the processing

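In CHG gene bodies every member tested was called under each alternative run (7, or 6 of 6 with data in at least 80% of libraries). Of all loci, 17.8% to 33% were called in CHG bodies in these runs. Leaving out each growth round gave 10 to 12 of the 21 tests of gene body minus promoter (11 with all rounds), 11 to 15 of member minus protein-coding mean (14), 6 to 7 members in CG and in CHH bodies, 7 in CHG bodies, and 1 to 3 members in CG promoters (4), 2 to 4 in CHG promoters (3) and 3 in CHH promoters (3). With each growth round left out, 52.1% to 56.4% of all loci were called in CG bodies and 13% to 13.5% in CHH bodies. For promoters the shares were 24.8% to 26.4% in CG, 13.9% to 20.2% in CHG and 8.93% to 12.3% in CHH. Within single growth rounds, 4 (round 1) and 5 (round 2) of the body minus promoter tests passed, and 8 (round 3) and 8 (round 4) of the member minus protein-coding tests, on fewer accessions. With values as deposited, 7 promoters were called in CG, CHG and CHH, where 34.8%, 36.5% and 37.6% of all promoters were called, and 3 bodies in CHH, where 35% of all bodies were. With data in at least 80% of libraries, 2 promoters were tested and 2 were called in CG, 1 in CHG and 1 in CHH. Of all promoters, 26.3%, 15.3% and 10% were called in that run. With at least 20 libraries, 5 of 6 were called in CHG promoters (16% of all). Without accessions with 1 library, 2 CG promoters were called (26.3% of all). With the growth round as a replicate block, every count matched except that of CHH bodies, since AT4G16940 was lost (adjusted p = 0.0661).

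Gene body minus promoter turned negative with values as deposited, where regions without data count as 100%. It was then -29.9, -50.4 and -60.4 points for RPP4 in CG, CHG and CHH, -19.8, -30.8 and -35.0 for AT4G16920, -48.2, -62.4 and -64.6 for RPP5, -11.6 in CHG and -6.12 in CHH for AT4G16960, and -9.28 in CHH for AT4G16900. Against the median in place of the mean of protein-coding genes, AT4G16960 was 1.43 points higher in CHG and 0.263 in CHH. Without the 30 libraries that lacked a member body, an alternative added after the data were seen, AT4G16940 lost its CG (adjusted p = 0.0769) and CHH calls and SNC1 its body minus promoter call in CHG (0.0632). Without CG values of exactly 100%, 13 body minus promoter tests passed. That run left out more promoter than body values of AT4G16960 and RPP5. Without read counts, it cannot be said which values rest on few reads.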
